A study of Rattus norvegicus with 9 samples.

Results

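The genes Vtn, Notch3, Pdgfrb, Rgs5, Kcnj8, Abcc9, Anpep, Acta2 and Tagln, markers of the pericytes and smooth muscle cells of brain vessels, were followed by gene ID in RNA-seq read counts from rat striatum. All 9 were among the 22890 genes counted, and all 9 passed the filter on low counts that left 14274 genes. The tissue came from 3 groups of 3 libraries each. Sham was the control group, ICH rats had an intracerebral hemorrhage, which is bleeding into the brain tissue, and EDB stands for the drug edaravone dexborneol, which joins a free radical scavenger with dexborneol. The labels state no strain, age, sex, dose, time or means of inducing the bleeding, nor is it given if EDB rats bled as well, so EDB was set against each of the others. The labels do not tie libraries to separate animals. In the main fit, the p-values weigh a difference against the spread between libraries. That spread was estimated over all 9 libraries, so each comparison also drew on the group not compared.

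Mural cells sit on the outside of the endothelial tube. Pericytes cover capillaries and are recruited by platelet-derived growth factor B from the endothelium through the receptor PDGFR-beta, while smooth muscle cells ring the arterioles and contract them. Notch3, a receptor of both cell types, keeps arterial smooth muscle differentiated, and the contractile genes are driven by serum response factor acting on CArG boxes in their promoters. In whole tissue, fewer cells of a type and less RNA per cell cannot be told apart.

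Promoter sequences of 3 of the genes called below, and of 3 genes of their pathways, are shown because they hold letters that match the motifs of serum response factor or of the Notch effector RBPJ. A match is a description of the letters and not a site in use. They come from RefSeq for the assembly GRCr8, whereas the counts rest on Rnor_6.0. Of the 9 genes, 7 were in the promoter table, and Pdgfrb and Tagln were not. Each stretch runs 5′ to 3′ on the gene's strand, and positions are counted back from the start of the gene. Capitals mark CArG boxes, searched with at most 1 middle base other than A or T, and the RBPJ core TGGGAA on either strand. The 250 bases before Acta2 (chr1:241172504-241172753, minus strand) hold CArG boxes that start at -134 and -84, the second overlapping a TGGGAA at -77. The 250 bases before Vtn (chr10:63892532-63892781, plus strand) hold 5 copies of the core, and those before Anpep (chr1:143195102-143195351, minus strand) hold 1.
Acta2: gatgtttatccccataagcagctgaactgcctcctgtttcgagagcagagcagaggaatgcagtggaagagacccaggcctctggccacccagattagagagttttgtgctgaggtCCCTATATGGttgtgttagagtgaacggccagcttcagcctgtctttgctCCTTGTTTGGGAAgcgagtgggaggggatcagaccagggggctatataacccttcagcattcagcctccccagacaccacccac
Vtn: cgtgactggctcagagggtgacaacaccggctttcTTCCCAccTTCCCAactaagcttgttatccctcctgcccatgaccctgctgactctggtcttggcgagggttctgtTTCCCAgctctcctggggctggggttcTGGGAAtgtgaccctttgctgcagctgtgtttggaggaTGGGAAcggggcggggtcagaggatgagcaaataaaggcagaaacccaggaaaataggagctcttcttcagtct
Anpep: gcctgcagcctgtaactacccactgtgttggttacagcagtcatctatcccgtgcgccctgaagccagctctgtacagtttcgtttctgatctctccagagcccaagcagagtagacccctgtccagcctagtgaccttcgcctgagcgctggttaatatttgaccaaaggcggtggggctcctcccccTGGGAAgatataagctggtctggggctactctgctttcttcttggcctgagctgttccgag
Of 33469 promoters in the table, 8.08% held such a CArG box in the 250 bases before the start, 0.693% held it in 2 or more places, and 1.5% held an exact one. The RBPJ core was found in 22.1%, and in 5 or more places in 1 promoter, that of Vtn. Among the other contractile genes, Srf, which encodes serum response factor itself, and Cnn2, which encodes calponin 2, held exact CArG boxes in positions -100 to -41 (chr9:21923976-21924035, plus strand and chr7:10370353-10370412, minus strand). Among the 16 Notch genes, 14 were in the table and 6 of these held the core at least once, Notch4, Dll1, Rbpj, Hes1, Hes5 and Hey2, as did 8 of 18 other contractile genes, 3 of the 7 mural genes in the table and the 22.1% of all promoters given above. The target genes Hes1 (-123 and -109), Hey2 (-175 and -60) and Hes5 (-242 and -98) each held 2. So did Notch4 (-246 and -93), Dll1 (-185 and -82) and the contractile genes Tpm1 (-85 and -13) and Actn1 (-234 and -140). Of all promoters, 2.71% held 2 or more. Heyl and Nrarp, which were lower in ICH like Hes5, held none. Hes5 is shown as an example, from -250 to -81 (chr5:170804327-170804496, plus strand).
Srf: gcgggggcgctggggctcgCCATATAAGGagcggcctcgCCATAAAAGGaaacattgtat
Cnn2: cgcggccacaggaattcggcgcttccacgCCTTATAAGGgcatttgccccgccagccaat
Hes5: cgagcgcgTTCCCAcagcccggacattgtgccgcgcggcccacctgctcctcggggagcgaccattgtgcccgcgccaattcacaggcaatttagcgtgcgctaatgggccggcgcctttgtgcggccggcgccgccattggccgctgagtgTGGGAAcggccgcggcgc
No match to either motif was found in that window for Notch3, Rgs5, Kcnj8 or Abcc9.

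Total counts ran from 14658110 to 17659936 per library, and levels are CPM, the counts scaled to a common library size. The libraries held striatal tissue by their neuronal markers (9 genes), which summed to 7924 to 12798 CPM in Sham, 5677 to 7108 CPM in ICH and 8342 to 9550 CPM in EDB. Single libraries stood apart by markers of other tissues or by a Y-linked gene. Choroid plexus markers (8 genes in the files) summed to 7424 CPM in EDB 3 against 29.3 to 77.1 CPM in all other libraries. ICH 1 had no counts of Kdm5d, a Y-linked gene, which had 151 to 313 counts elsewhere. The 13 liver markers summed to 221 and 219 CPM in Sham 1 and Sham 3, above the other 7 libraries, which had 3.61 to 4.02 CPM in Sham 2, ICH 1 and EDB 1 and 24.6 to 34.4 CPM in the rest. A fit without Sham 2, ICH 1 and EDB 3, chosen after seeing the data, leaves both Sham libraries with liver markers in place, and fits without Sham 1 or Sham 3 were also made.

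In ICH against Sham, the mural genes split. Vtn, Notch3 and Acta2 fell, Anpep and Tagln rose, and Pdgfrb, Rgs5, Kcnj8 and Abcc9 were not called. A gene was called at an adjusted p under 0.05 in edgeR's quasi-likelihood test, with Benjamini-Hochberg adjustment over all genes tested. By that rule 18.7% of the 14274 genes were called in either direction, 11.4% higher and 7.3% lower, beside 5 of the 9 genes here. The 9 genes and the lists below were chosen with earlier results of these data known, so such shares are no test of them. The ICH and Sham libraries did not overlap in 7 of the 9 genes and in 35.6% of all genes tested. The median log2 fold change was -0.42 over the 9 genes and 0.01 over all genes tested. Over all genes, 1628 calls were higher and 1042 lower, but 2008 and 691 with scaling by library size only.

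**Figure D1:**
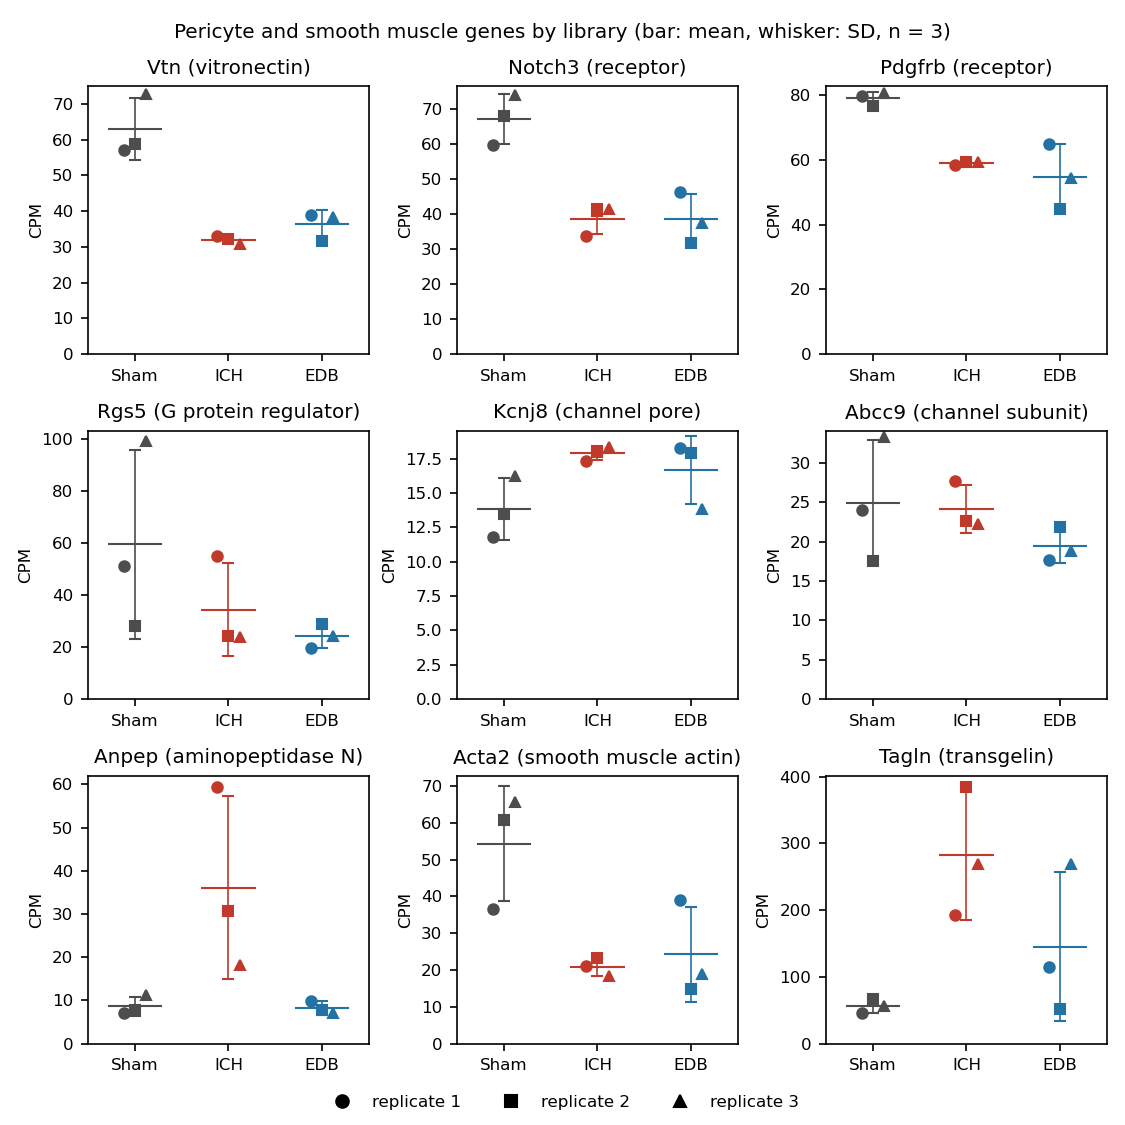
Level of each of the 9 genes (CPM, linear axis from 0) in every library of Sham, ICH and EDB, with the group mean as a horizontal line and the SD as a whisker (n = 3). Vtn, Notch3 and Pdgfrb lie lower in all ICH and EDB libraries than in any Sham library, whereas Anpep lies higher in ICH, at 18.2 to 59.4 CPM, than in any other.

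Vitronectin (Vtn) is an adhesive matrix protein that pericytes secrete and that hepatocytes release into plasma. Its gene had 57.1, 58.8 and 72.9 CPM in Sham, 33.2, 32.3 and 30.8 CPM in ICH and 39.0, 31.7 and 38.3 CPM in EDB. Every ICH and EDB library lay below every Sham library. The fall in ICH had a log2 fold change of -0.97 ± 0.14 (SE, n = 3 against 3, adjusted p = 0.000664), and that in EDB against Sham was -0.79 ± 0.14 (adjusted p = 0.00595). Both calls held in all 18 alternatives that were run. The liver markers summed to 221, 3.83 and 219 CPM in Sham 1, Sham 2 and Sham 3. Of these libraries, Sham 3 had the highest Vtn level and Sham 1 the lowest. Without Sham 1 the log2 fold change of Vtn in ICH was -1.07, and without Sham 3 it was -0.85. The part of liver RNA in these levels was not tested.

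Notch3 stood at 59.7, 67.9 and 74.1 CPM in Sham, 33.8, 40.8 and 41.5 CPM in ICH and 46.3, 31.9 and 37.4 CPM in EDB. Again neither ICH nor EDB overlapped with Sham. Its log2 fold change was -0.80 ± 0.16 in ICH against Sham (adjusted p = 0.00549) and -0.80 ± 0.16 in EDB against Sham (adjusted p = 0.0118). The call in EDB against Sham was lost without Sham 3 (adjusted p = 0.0509), whereas that in ICH against Sham held in all 18 alternatives.

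Pdgfrb, the receptor through which endothelial PDGF-B recruits pericytes, had smaller differences. Its levels were 79.7, 76.7 and 80.6 CPM in Sham, 58.4, 59.3 and 59.2 CPM in ICH and 65.0, 44.8 and 54.3 CPM in EDB. The ICH libraries were close together and all below Sham, yet the difference of -0.42 ± 0.13 missed the threshold (adjusted p = 0.0512, 95% interval -0.72 to -0.13). It was called in 6 of 18 alternatives, among them DESeq2 (adjusted p = 0.0165) and the fits without EDB 1 (adjusted p = 0.0354) or EDB 2 (adjusted p = 0.0261). Pdgfrb fell by 0.53 on the log2 scale in EDB against Sham (SE 0.14, adjusted p = 0.0384). That call was lost in 9 of 18 alternatives, including the fits without Sham 1 (adjusted p = 0.107), Sham 3 (adjusted p = 0.11), ICH 2 (adjusted p = 0.0561), ICH 3 (adjusted p = 0.0581), EDB 2 (adjusted p = 0.0925) or EDB 3 (adjusted p = 0.102).

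Rgs5, which encodes a regulator that switches off G protein signals and is among the most used pericyte markers, varied widely within Sham and ICH. It stood at 51.2, 27.9 and 98.9 CPM in Sham, 54.9, 24.1 and 23.8 CPM in ICH and 19.5, 28.9 and 24.3 CPM in EDB. The 3 highest libraries, Sham 3, ICH 1 and Sham 1, were also the 3 with the highest share of counts from mitochondrially encoded genes, at 12.03%, 8.29% and 7.54% against 2.93% to 5.93% in the others. The part of that share in the result was not tested. The log2 fold change was -0.79 ± 0.44 in ICH against Sham (adjusted p = 0.255, 95% interval -1.77 to 0.18) and -1.29 ± 0.45 in EDB against Sham (adjusted p = 0.111, 95% interval -2.28 to -0.30). Rgs5 was called lower in EDB against Sham without Sham 2 (-1.63, adjusted p = 0.0355). Without Sham 2, ICH 1 and EDB 3 together it was called lower in both, at -1.64 in ICH (adjusted p = 0.0119) and -1.63 in EDB (adjusted p = 0.0163). These fits keep Sham 1 and Sham 3 but not Sham 2, and the last also drops ICH 1. In them every Sham library has a higher mitochondrial share than any library compared with it, so share and group cannot be told apart.

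Kcnj8 and Abcc9 encode the Kir6.1 pore and the SUR2 subunit of the ATP-sensitive potassium channel of pericytes and smooth muscle, and they neighbour each other in the genome. Kcnj8 stood at 11.8, 13.5 and 16.3 CPM in Sham, 17.4, 18.0 and 18.4 CPM in ICH and 18.3, 17.9 and 13.8 CPM in EDB. The ICH libraries all lay above the Sham libraries, but the difference of 0.37 ± 0.17 was not called (adjusted p = 0.173, 95% interval -0.01 to 0.76). Abcc9 stood at 24.0, 17.5 and 33.3 CPM in Sham, 27.6, 22.6 and 22.3 CPM in ICH and 17.6, 21.9 and 18.8 CPM in EDB. Its highest libraries were Sham 3, ICH 1 and Sham 1, as for Rgs5, those with the highest mitochondrial share, whose part was not tested here either. Its groups overlapped in both comparisons with Sham, with a log2 fold change of -0.04 ± 0.22 in ICH (adjusted p = 0.922, 95% interval -0.52 to 0.43) and -0.36 ± 0.22 in EDB (adjusted p = 0.37). In EDB against ICH every Abcc9 library of EDB lay below every ICH library, but the difference of -0.31 ± 0.22 was not called (adjusted p = 0.506). The channel genes of neurons, Kcnj11 and Abcc8, were both lower in every ICH library than in any Sham library, at -0.60 ± 0.15 for Kcnj11 (adjusted p = 0.0181) and -0.54 ± 0.19 for Abcc8 (adjusted p = 0.0657). Kcnj11 lost its call without Sham 2, Sham 3 or ICH 1 (with adjusted p between 0.0524 and 0.0729). It was also lost without Sham 2, ICH 1 and EDB 3 together (-0.40, adjusted p = 0.122).

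The contractile genes Acta2 and Tagln, which encode smooth muscle alpha-actin and the actin-binding protein transgelin, moved in opposite directions in ICH against Sham. Acta2 stood at 36.6, 60.8 and 65.6 CPM in Sham, 21.2, 23.2 and 18.3 CPM in ICH and 39.0, 14.9 and 18.9 CPM in EDB. All ICH libraries were below Sham, whereas EDB 1 reached the level of Sham 1. The log2 fold change in ICH was -1.38 ± 0.33 (adjusted p = 0.0142). The call was lost without Sham 3 (adjusted p = 0.0544), without ICH 3 (adjusted p = 0.0538) and without Sham 2, ICH 1 and EDB 3 together (adjusted p = 0.115). In EDB against Sham the difference was -1.16 ± 0.33 (adjusted p = 0.0556), which was not called, but on the same libraries it was called by DESeq2 (adjusted p = 0.00567) and by limma-voom (adjusted p = 0.0437), and by edgeR without EDB 1 (-1.68, adjusted p = 0.00846). Counts of Acta2 can share reads with the near-identical muscle actins, of which Acta1 stood at 11.9 to 25.3 CPM and Actg2 at 0.0540 to 1.37 CPM over the 9 libraries.

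Tagln stood at 45.4, 66.9 and 55.8 CPM in Sham, 193, 384 and 269 CPM in ICH and 115, 51.9 and 269 CPM in EDB. All ICH libraries were above Sham, and the EDB libraries ran from the Sham range (EDB 2) to the ICH range (EDB 3). The rise in ICH had a log2 fold change of 2.33 ± 0.50 (adjusted p = 0.00947), a call that leaving out Sham 2 ended (adjusted p = 0.0511), as did leaving out Sham 3 (adjusted p = 0.0516). In EDB against Sham the difference was 1.38 ± 0.49 (adjusted p = 0.122), and it was called without EDB 2 (1.78, adjusted p = 0.0188). Without EDB 3, the library with choroid plexus markers, it was 0.58. The ratio of Tagln counts to Acta2 counts was 1.24, 1.10 and 0.850 in Sham, 9.11, 16.6 and 14.7 in ICH and 2.96, 3.48 and 14.2 in EDB. Each ICH and EDB library thus had a higher ratio than any Sham library, and EDB 3 was the EDB library within the ICH range. The cells that the Tagln and Acta2 counts came from were not tested, so the ratio need not describe a single cell type.

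Anpep, which encodes aminopeptidase N (CD13), a surface peptidase of pericytes and also of myeloid cells and fibroblasts, was the one gene of the 9 called between ICH and EDB. It stood at 6.999, 7.87 and 11.2 CPM in Sham, 59.4, 30.6 and 18.2 CPM in ICH and 9.96, 7.73 and 7.06 CPM in EDB. Every ICH library lay above all 6 others, with ICH 1 the highest, and the EDB libraries overlapped with Sham. Anpep rose in ICH against Sham (2.06 ± 0.38, adjusted p = 0.00342), in all 18 alternatives and by 1.43 without Sham 2, ICH 1 and EDB 3.

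**Figure D2:**
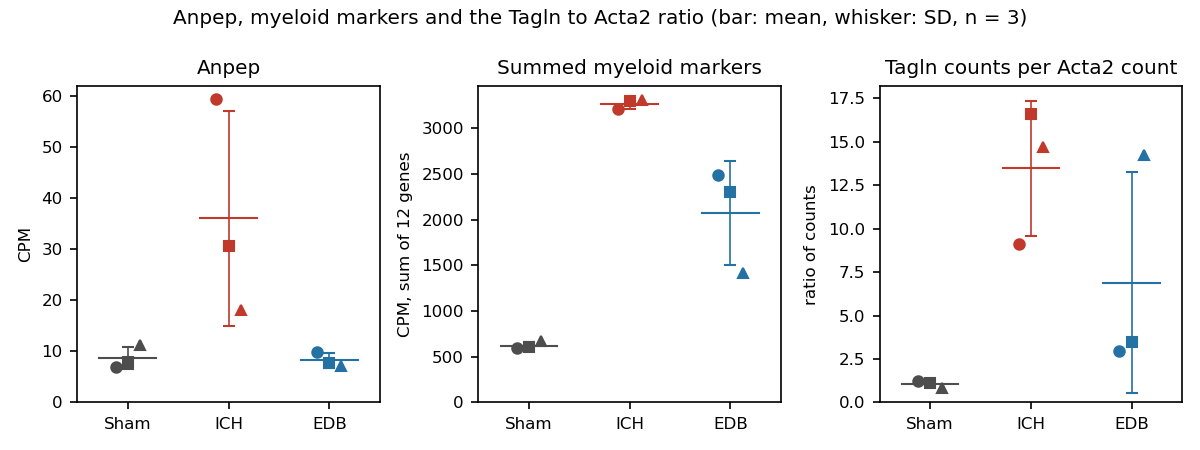
Left, Anpep level (CPM); middle, summed level of 12 myeloid markers (CPM); right, Tagln counts divided by Acta2 counts in the same library, each by library with group mean and SD (n = 3, symbols by replicate number as circles, squares and triangles). Anpep lies at 7.06 to 9.96 CPM in EDB, overlapping with Sham (6.999 to 11.2 CPM). The myeloid sum in EDB (1422 to 2494 CPM) lies above Sham (594 to 673 CPM) and below ICH (3209 to 3308 CPM). The sum is weighted towards abundant genes such as Csf1r (716, 802 and 415 CPM in EDB). Scarcer ones such as Cd68 (61.6, 32.7 and 11.6 CPM in EDB) add little to it. The part of myeloid cells in the Anpep level was not tested.

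Markers of other Anpep-bearing cells moved as well. All 11 tested of 12 myeloid markers rose in ICH against Sham, among them the immune adaptor Tyrobp (3.29 ± 0.24) and the lipopolysaccharide co-receptor Cd14 (3.78 ± 0.30). Their summed level was 594 to 673 CPM in Sham, 3209 to 3308 CPM in ICH and 1422 to 2494 CPM in EDB, and 10 of the 11 were called higher in EDB against Sham. In EDB against ICH, where Anpep fell, the median log2 fold change of the 11 myeloid genes was -0.67. Of the 11, 8 were lower in every EDB library than in any ICH library. Beside this, 25.2% of all genes did not overlap in either direction, and the share for lower alone was not counted. The lysozyme gene Lyz2 (-1.84 ± 0.27, adjusted p = 0.0244) and Cd14 (-1.34 ± 0.26, adjusted p = 0.049) were called lower there, calls that were lost in 5 and 11 of 18 alternatives (adjusted p up to 0.0787 and 0.165). Fibroblast markers (12 genes) summed to 96.2 to 122 CPM in Sham, 128 to 254 CPM in ICH and 86.7 to 227 CPM in EDB. Of 10 tested, 1 rose in ICH, a share near that of all genes. It was the matrix gene Fbln1 (0.59 ± 0.18, adjusted p = 0.0431). Like Anpep, the fibroblast collagen Col3a1 was highest in ICH 1, at 62.2 CPM against 21.1 and 14.4 CPM in ICH 2 and ICH 3, but it was not called (1.64 ± 0.59, adjusted p = 0.0815). Fbln1 lost its call without any one of the 6 Sham and ICH libraries (with adjusted p between 0.0514 and 0.131). The part of these cells in the Anpep result was not tested.

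EDB against ICH compares rats of the drug group with rats that bled. Of the 9 mural genes Anpep fell (-2.13 ± 0.38, adjusted p = 0.0435) and 8 were not called, beside 0.687% of all genes tested that were called in either direction and 0.631% that were called lower. The groups did not overlap for 2 of the 9, Anpep and Abcc9, and for 25.2% of all genes. The Anpep call was lost in 11 of 18 alternatives (with adjusted p between 0.0573 and 0.115), among them limma-voom, the fit with only the 6 libraries compared, and the fits that left out Sham 1, Sham 3, ICH 1, ICH 2 or any EDB library. Its direction did not change in any of the 18, with log2 fold changes from -2.45 to -1.46. For the genes not called, the 95% intervals of the log2 fold change were -0.12 to 0.48 for Vtn, -0.36 to 0.34 for Notch3 and -0.41 to 0.19 for Pdgfrb, and wider for Acta2 (-0.51 to 0.94) and Tagln (-2.02 to 0.11). In EDB against Sham, 3 of 9 fell, Vtn, Notch3 and Pdgfrb, and 6 were not called, beside 7.66% of all genes called in either direction, 4.95% higher and 2.71% lower. The median log2 fold change of the 9 was -0.53 there and -0.11 in EDB against ICH, beside -0.01 and -0.03 over all genes. EDB and Sham did not overlap for the same 3 genes and for 26.1% of all genes. These comparisons share the ICH or the Sham libraries with ICH against Sham, so they are not independent of it.

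**Figure D3:**
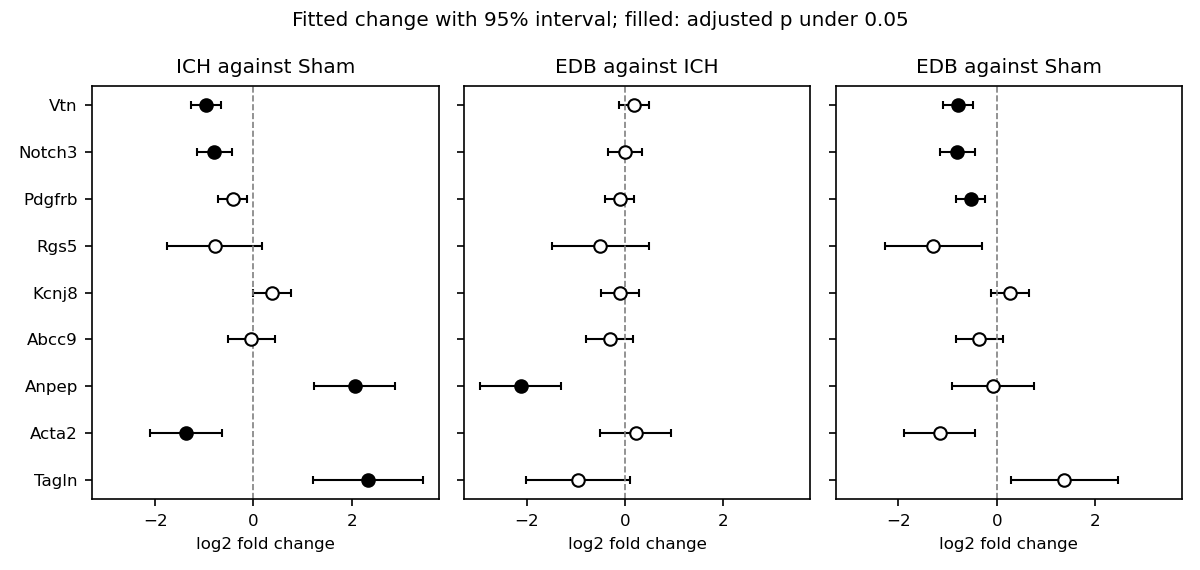
Fitted log2 fold change of each gene in the 3 comparisons, with the 95% interval as a bar; filled points had an adjusted p under 0.05. Filled points are Vtn, Notch3, Anpep, Acta2 and Tagln in ICH against Sham, Anpep in EDB against ICH, and Vtn, Notch3 and Pdgfrb in EDB against Sham.

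Likeness across the 9 libraries is described by Pearson's r of log2 CPM over libraries that share groups and depth. Notch3 and Acta2 (r = 0.94), Notch3 and Pdgfrb (r = 0.94), and Vtn and Notch3 (r = 0.93) followed each other, and so did Rgs5 and Abcc9 (r = 0.89). Rgs5 and Abcc9 were both highest in the libraries with the highest mitochondrial share given above, whose part was not tested. Vtn and Tagln ran against each other most (r = -0.67), and the median over all 36 pairs was 0.15. Of 13248 other tested genes with a symbol, the one most like each gene was Mllt6 for Vtn (r = 0.98), Tbc1d24 for Notch3 (r = 0.97), Tmem51 for Pdgfrb (r = 0.97), Abcb1b for Rgs5 (r = 0.98), Plekha2 for Kcnj8 (r = 0.97), Map4k3 for Abcc9 (r = 0.98), C6 for Anpep (r = 0.98), Acvrl1 for Acta2 (r = 0.98) and Slc3a2 for Tagln (r = 0.96). Each match is the largest of 13248 values of r, and this choice alone makes it high. Spearman's correlation was 0.68 for Kcnj8 with Plekha2, 0.78 for Pdgfrb with Tmem51 and 0.92 to 0.97 for the other matches. Abcb1b encodes a drug efflux pump, C6 a complement component and Acvrl1 a TGF-beta family receptor of vessels. C6 was scarce, at 0.0625 to 0.283 CPM in Sham and 1.13 to 5.36 CPM in ICH.

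Other genes of the pathways that these 9 belong to were drawn from lists, and genes named below beyond the 2 with the smallest p of each list were chosen after their values were seen. Each count of calls in ICH against Sham below stands beside 18.7% of all genes called, 11.4% higher and 7.3% lower. Of 16 Notch genes, 4 fell, 2 rose and 10 were not called in ICH against Sham, with a median log2 fold change of -0.17. Those that fell were the ligand Jag2 and the target genes Hes5, Heyl and Nrarp. Hes5, a transcriptional repressor, stood at 25.1, 20.0 and 23.6 CPM in Sham, 8.80, 6.23 and 7.18 CPM in ICH and 10.7, 10.3 and 10.1 CPM in EDB. Heyl, a Notch target of vascular smooth muscle, stood at 49.6, 56.6 and 47.9 CPM in Sham, 22.1, 20.3 and 24.1 CPM in ICH and 29.3, 24.6 and 29.5 CPM in EDB. Nrarp, which restrains Notch signalling as its own target, stood at 38.1, 46.2 and 31.5 CPM in Sham, 14.6, 15.04 and 13.8 CPM in ICH and 14.97, 12.9 and 15.3 CPM in EDB.

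The levels of Hes5, Heyl and Nrarp did not overlap between Sham and either other group. In ICH their log2 fold changes were -1.63 ± 0.18 for Hes5 (adjusted p = 0.000143), -1.21 ± 0.14 for Heyl (adjusted p = 0.000156) and -1.41 ± 0.16 for Nrarp (adjusted p = 0.000182). The same 4 genes fell in EDB against Sham, with Heyl at -0.89 ± 0.14 (adjusted p = 0.00294) and Nrarp at -1.42 ± 0.16 (adjusted p = 0.000824), and the median over the 16 genes was -0.32. Notch2 was called higher there (0.74, adjusted p = 0.0491), a call lost in 14 of 18 alternatives (with adjusted p between 0.0526 and 0.172), among them RLE scaling, library size only, limma-voom, the 6 libraries compared, the replicate block and the fits without any single library other than EDB 2. Without EDB 3 it was 0.47. The calls of Jag2, Hes5, Heyl and Nrarp held in all 18 alternatives in both comparisons with Sham. Hes1 (-0.02), Hey1 (-0.09) and Hey2 (-0.07) were not called in ICH (log2 fold changes). The risen genes were Notch2 (0.81 ± 0.20) and the effector Rbpj (0.77 ± 0.22), of which Notch2 was not called without Sham 3 or ICH 2 (adjusted p = 0.0673 and 0.0811) and Rbpj without Sham 2, ICH 1 or ICH 2 (with adjusted p between 0.0704 and 0.131). Rbpj also lost its call with the replicate block (adjusted p = 0.0611) and without Sham 2, ICH 1 and EDB 3 together, where its log2 fold change was 0.39 (adjusted p = 0.163). Notch targets are also expressed by neural cells, and their source was not tested.

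**Figure D4:**
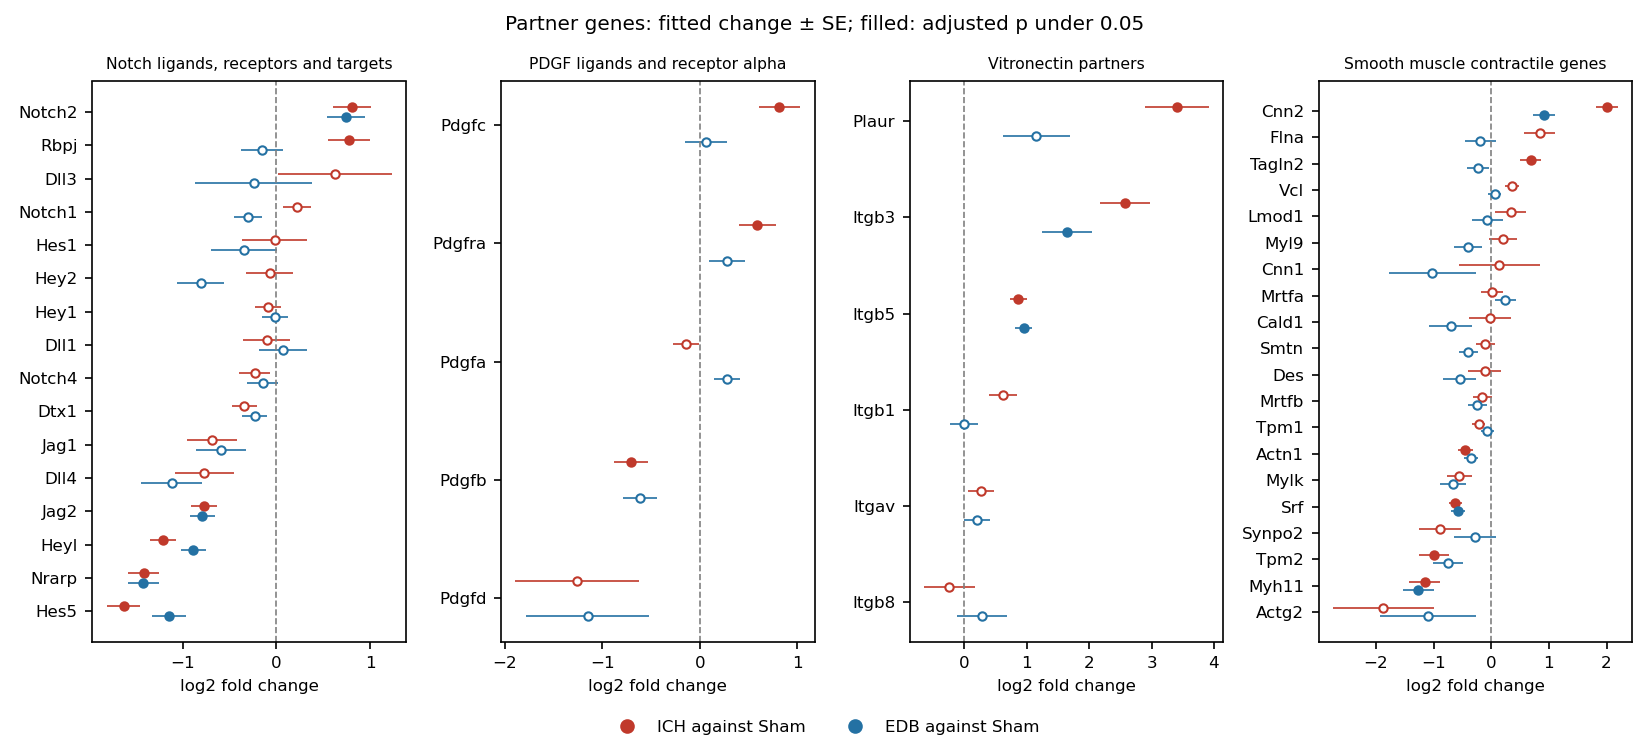
Fitted log2 fold change ± SE of the reported Notch, PDGF, vitronectin partner and contractile genes against Sham, in red for ICH and in blue for EDB; filled points had an adjusted p under 0.05. The Notch targets Hes5, Heyl and Nrarp lie below 0 in both groups, and Cnn2 lies above 0 in both.

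Among 5 genes of PDGF signalling, 1 fell and 2 rose in ICH against Sham (median -0.14). Pdgfb, the endothelial ligand of PDGFR-beta, fell from 34.7, 50.1 and 45.5 CPM in Sham to 29.4, 27.4 and 23.0 CPM in ICH (-0.71 ± 0.18, adjusted p = 0.0166). That call was lost without Sham 2, Sham 3 or ICH 3 (with adjusted p between 0.0511 and 0.0674). The ligand Pdgfc rose (0.82 ± 0.21, adjusted p = 0.022), and the call was lost without Sham 2 (0.64), ICH 1 (0.81) or ICH 3 (0.71), with adjusted p between 0.0523 and 0.0787, and without Sham 2, ICH 1 and EDB 3 together (0.63, adjusted p = 0.0875). The receptor Pdgfra rose at the edge of the threshold (0.59, adjusted p = 0.0498) and lost its call when Sham 1, Sham 2, EDB 1, EDB 2 or any ICH library was left out (with adjusted p between 0.0567 and 0.201). Of 12 tested endothelial markers, the cells that Pdgfb comes from, 1 fell, the growth factor receptor Flt1 (-0.77 ± 0.18), and 11 were not called. Their median log2 fold change was -0.41 in ICH and -0.46 in EDB against Sham, beside -0.42 and -0.53 for the 9 mural genes, and their part in the mural results was not tested. Of the 12, 6 were lower in every EDB library than in any Sham library, beside 26.1% of all genes not overlapping in either direction. Their summed level was 548 to 764 CPM in Sham, 502 to 560 CPM in ICH and 445 to 522 CPM in EDB, so EDB lay wholly below Sham.

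The other contractile genes were also divided. Of 20 tested, 4 fell, 2 rose and 14 were not called in ICH against Sham (median -0.10), beside 11.4% of all genes called higher and 7.3% called lower. Srf fell from 161, 187 and 146 CPM in Sham to 99.5, 109 and 112 CPM in ICH (-0.62 ± 0.12, adjusted p = 0.00401), and to 113, 112 and 108 CPM in EDB (-0.57 ± 0.12, adjusted p = 0.0138). Smooth muscle myosin, Myh11, fell from 33.4, 48.4 and 61.4 CPM in Sham to 16.9, 28.6 and 18.9 CPM in ICH (-1.15 ± 0.27, adjusted p = 0.0125), and in EDB against Sham (-1.27 ± 0.27, adjusted p = 0.0171). The ICH call of Myh11 was lost without Sham 3 or ICH 1 (adjusted p = 0.052 and 0.0557), and its EDB call without Sham 3, EDB 2 or EDB 3 (with adjusted p between 0.0537 and 0.0728). Without Sham 2, ICH 1 and EDB 3 together, Myh11 was called neither in ICH (adjusted p = 0.0968) nor in EDB against Sham (adjusted p = 0.0657). The EDB call of Srf was lost without Sham 1, EDB 1 or EDB 3 (with adjusted p between 0.05001 and 0.056).

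Cnn2 rose from 16.5, 19.4 and 11.8 CPM in Sham to 64.1, 74.5 and 52.9 CPM in ICH (2.005 ± 0.19, adjusted p = 6.46e-05), and was at 30.4, 30.0 and 29.6 CPM in EDB. It was therefore higher in EDB than in Sham (0.91 ± 0.19, adjusted p = 0.0138) and lower than in ICH (-1.09 ± 0.18, adjusted p = 0.0411). The call in ICH against Sham held in all 18 alternatives, that in EDB against Sham was lost without Sham 1 or EDB 1 (adjusted p = 0.0532 and 0.0523), and that in EDB against ICH was lost when Sham 1, ICH 1, ICH 2 or any EDB library was left out (with adjusted p between 0.0631 and 0.151). Of the genes with CArG boxes shown above, Acta2 and Srf were thus lower in ICH and Cnn2 higher. Calponin 2 is made by many cells besides smooth muscle, macrophages among them, as is the transgelin paralog Tagln2, which rose in ICH (0.68 ± 0.19, adjusted p = 0.0274) but was no longer called without Sham 1, Sham 3, ICH 1 or ICH 3 (with adjusted p between 0.0511 and 0.12). Calponin 1, Cnn1, the smooth muscle form, stood at 0.687 to 2.05 CPM in Sham and 1.34 to 1.64 CPM in ICH and was not called (0.14 ± 0.71).

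Of 16 further pericyte genes tested, 4 fell, 2 rose and 10 were not called in ICH against Sham (median -0.37). The pericyte ATPase gene Atp13a5 fell (-1.03 ± 0.26, adjusted p = 0.0194), a call lost without Sham 3, ICH 2 or ICH 3 (with adjusted p between 0.0565 and 0.0766). The interferon-induced membrane protein Ifitm1 rose from 1.31, 1.30 and 1.56 CPM in Sham to 34.4, 10.4 and 7.99 CPM in ICH (3.66 ± 0.55, adjusted p = 0.001) and was at 3.59, 1.98 and 2.06 CPM in EDB. Its fall in EDB against ICH (-2.79 ± 0.52, adjusted p = 0.0439) was lost when Sham 1, Sham 3, ICH 1, ICH 2 or any EDB library was left out (with adjusted p between 0.0676 and 0.116). As for Anpep, ICH 1 was the highest library. Without ICH 1 the log2 fold change of Ifitm1 was 2.73 in ICH against Sham (adjusted p = 0.00096) and -1.86 in EDB against ICH (adjusted p = 0.0869). Cspg4, the proteoglycan NG2 of pericytes and of oligodendrocyte precursors, rose (0.60 ± 0.14, adjusted p = 0.0104), a call lost without Sham 1 or ICH 2 (adjusted p = 0.0529 and 0.0615).

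Among 7 receptors and partners of vitronectin, 4 rose and 3 were not called in ICH against Sham, while Vtn itself fell. The median log2 fold change was 0.87. The integrin subunit Itgb5 rose from 58.6, 60.1 and 49.3 CPM in Sham to 88.2, 112 and 106 CPM in ICH (0.87 ± 0.13, adjusted p = 0.00116) and stood at 114, 97.5 and 114 CPM in EDB (0.95 ± 0.13 against Sham, adjusted p = 0.00199). The urokinase receptor Plaur rose from 0.375, 0.752 and 0.354 CPM to 6.65, 5.79 and 3.46 CPM (3.40 ± 0.52, adjusted p = 0.00105). The integrin subunit Itgb3 also rose (2.58 ± 0.40, adjusted p = 0.00122), and the calls of Itgb5, Plaur and Itgb3 in ICH against Sham held in all 18 alternatives. Integrin and urokinase receptor genes are also those of myeloid cells, whose markers rose as given above. The part of these cells in the vitronectin partner results was not tested.

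Of 6 tested RGS relatives of Rgs5, Rgs1 (2.94 ± 0.71) and Rgs16 (0.76 ± 0.22) rose in ICH against Sham, Rgs4 (-0.83 ± 0.24) and Rgs8 (-0.66 ± 0.18) fell, and 2 were not called. Each of these 4 calls was lost when single Sham or ICH libraries were left out (adjusted p up to 0.114), Rgs1 without Sham 1 or ICH 1 (2.26 without ICH 1), Rgs16 without Sham 1, Sham 2, Sham 3, ICH 1 or ICH 2, Rgs4 without Sham 2, ICH 1 or ICH 3, and Rgs8 without ICH 1 or ICH 3. All 4 calls were also lost without Sham 2, ICH 1 and EDB 3 together (with adjusted p between 0.0906 and 0.107). Rgs4 and Rgs8 are neuronal genes of the striatum. Of the other membrane peptidases, those with the smallest p in ICH against Sham were the angiotensin-converting enzyme Ace (-0.85 ± 0.48, adjusted p = 0.258) and the endothelin-converting enzyme Ece1 (0.20 ± 0.11, adjusted p = 0.262), and neither was called.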

How the data were processed

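RNA was extracted from striatal tissue and 9 libraries, 3 per group, were sequenced. The deposited values are raw read counts per gene, made by the authors. The submitters' processing notes name cutadapt, HISAT2, HTSeq, limma and the build Rnor_6.0, while versions, annotation and strand setting were not given in those notes or the labels. Of 22890 genes, 14274 passed edgeR's filterByExpr by group. All 9 libraries were scaled by TMM and fitted together with edgeR 4.0.16 (R 4.3.3), by the robust quasi-likelihood test with Benjamini-Hochberg adjustment over all genes tested, and a gene was called at an adjusted p under 0.05. SE is the log2 fold change divided by the square root of F, and 95% intervals use the t distribution with the fit's degrees of freedom. The fit was also run on simulated data, with the outcome not reported here. Alternatives used DESeq2 1.42.0, limma-voom (limma 3.58.1), other scalings, filters and sets of libraries. Replicates of each group differed beyond sampling noise (chi-square per degree of freedom 23.9 to 68.9). Intervals cover the spread between libraries, and totals of 14658110 to 17659936 counts set the counting error. The named genes are the 9, up to 2 genes with the smallest p from each of 15 other lists, and the gene most like each of the 9; other genes named were chosen after their values were seen. The members and lists were chosen with earlier results of these data known. Gene names and promoters came from RefSeq tables of GRCr8, in which 16799 of the symbols matched and no other gene overlapped any of the 9. Without a stated strand setting, antisense reads cannot be told apart. Some genes of the lists are not reported here.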

Additional observations from a re-analysis of the deposited data

How the results depend on the processing

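Among the results of the 9 genes under 18 alternatives, 429 kept their direction and side of the threshold, 26 lost a call, 13 gained one and 18 reversed. The alternative without Sham 2, ICH 1 and EDB 3 was chosen after seeing the data. In ICH against Sham, leaving out single libraries gave 1769 to 2624 genes and 3 to 6 of the 9. In EDB against ICH it gave 8 to 321 genes and 0 to 1 of the 9, while DESeq2 called 696 genes, limma-voom 187 and the fit without the 3 libraries 198. Of the 9, 0 were called there by limma-voom, with only the 6 libraries compared and without the 3 libraries. For EDB against Sham it gave 508 to 1661 genes and 1 to 4 of the 9, and DESeq2 called 1796 genes. Deviations of same-numbered libraries from their group means had correlations of -0.31 to 0.25. Differently numbered libraries were not compared, so these values cannot tell if the numbers pair the samples. With the replicate block, 2093 genes and 5 of the 9 passed for ICH against Sham. For EDB against ICH the block gave 58 genes and 0 of the 9, and for EDB against Sham 801 genes and 2 of the 9.

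Log2 fold changes that reversed were all of uncalled results, and the cause was not tested. For ICH against Sham, Abcc9 gave 0.045 by library size only and -0.24 to 0.22 with single libraries left out. Otx2 gave -0.0023 with the replicate block and -0.34 to 0.73 with single libraries left out, and Slc4a1 gave -0.29 by limma-voom and -1.01 to 1.23. For EDB against ICH, Notch3 gave 0.016 by RLE scaling and by DESeq2, 0.0215 with 6 libraries and -0.16 to 0.11 with single libraries left out. Leaving out single libraries gave -0.25 to 0.0173 for Pdgfrb, -0.71 to 0.0149 for Rgs5, -0.17 to 0.0165 for Kcnj8, -0.31 to 0.47 for Acta2 and -0.15 to 1.49 for Ambp. Without the 3 libraries Rgs5 gave 0.0142 and Ambp -0.72. For EDB against Sham, leaving out single libraries gave -0.23 to 0.15 for Anpep, -0.32 to 0.0256 for Abcc8 and -0.19 to 0.0797 for Kcnj11, and without the 3 libraries Abcc8 gave 0.10 and Kcnj11 0.12.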
